A study of Mus musculus with 6 samples.

Results

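Prss56 and Adamts19 are 2 genes of 32285 in the count matrices, and they were followed here in Muller glia of the degenerating mouse retina. Both were selected on their difference between IL-27 treated and saline control libraries in these nuclei, so every value of the 2 genes in that comparison is given as a description with no test. The choice also read which genes go with each of them in the IL-27 libraries, so no p is given for their pairing there. Calls of other genes with either of them in those libraries are for the same reason a description, not an independent test. The choice did not read the saline libraries for such genes. The mice carried the rd10 allele of Pde6b (strain B6.CXB1-Pde6b-rd10/J), which kills rods, in all 6 libraries, controls included. Retinas received 1 intravitreal injection of saline or of recombinant IL-27 (20 ng) at postnatal day 18, and nuclei were isolated from frozen retinas at postnatal day 20. Saline eyes gave 3 libraries with the replicate numbers 1, 2 and 6; eyes given the cytokine gave another 3, which carry the numbers 4, 5 and 10. Neither a wild-type retina nor an uninjected eye was compared here. The labels do not say whether libraries came from separate animals, so p-values speak for these libraries only.

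Prss56 encodes a secreted trypsin-like serine protease that in the eye is made chiefly by Muller glia, the radial support cells of the retina. Its loss leaves the mouse and the human eye too short, and variants near it are linked to refractive error. Adamts19 encodes a secreted metalloproteinase with thrombospondin motifs. In mice that lack Mfrp, another gene of small-eye disease, both genes are raised in the retina, and both have been placed in the same network of postnatal eye growth. IL-27 signals through a receptor containing gp130 to JAK kinases and transcription factors of the STAT family.

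Counts are unique molecular identifiers (UMIs), each standing for 1 captured RNA molecule. Of 56634 barcodes, 52194 nuclei were retained, from 8239 to 9162 per library, with median depths from 2782 to 3787.5 UMIs. Muller nuclei were those with at least 2 UMIs of Abca8a, a transporter gene of these glia. They numbered 907, 772 and 791 in saline replicates 1, 2 and 6, and 735, 683 and 528 in IL-27 replicates 4, 5 and 10, 4416 in all, with a median of 4544 UMIs. Other Muller markers were common in them: Slc1a3, the glial glutamate transporter, had a UMI in 92.6% against 13.3% of the other nuclei, and Rlbp1, a retinoid carrier, in 70.5% against 10.5%. Clustering placed 4056 of the 4416 in the Muller cluster, and 87 in a ciliary-epithelium-like cluster that was mostly of saline nuclei. Flt1 and Col9a1, listed as markers of endothelial and ciliary cells, had a UMI in 92.2% and 93.5% of the Muller nuclei and in 5.25% and 8.66% of the others. Xist was at 2218 CPM (UMIs scaled for library depth in the usual way) in saline replicate 2, at 2117 CPM in IL-27 replicate 5 and under 1 CPM in the other 4 libraries. The 372 barcode sequences found in more than 1 library were kept.

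Binding of STAT factors, through which IL-27 acts, was not tested. Adamts19 had no promoter entry, so only the promoter of Prss56 is shown. It runs from 250 bases before to 50 bases after the RefSeq start, chr1:87183064-87183363, plus strand, GRCm38.p6. Capitals mark matches to TTCNNNGAA (the STAT motif), CTTTGA (the core bound by TCF and LEF factors of Wnt signalling) and TATATA, searched on both strands; the marked matches do not overlap.
Prss56 promoter: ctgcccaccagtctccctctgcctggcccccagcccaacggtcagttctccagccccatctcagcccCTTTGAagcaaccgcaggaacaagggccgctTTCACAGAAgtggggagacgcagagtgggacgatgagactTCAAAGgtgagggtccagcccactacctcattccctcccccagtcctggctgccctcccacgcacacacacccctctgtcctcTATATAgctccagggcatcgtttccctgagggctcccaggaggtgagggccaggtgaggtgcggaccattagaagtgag
The window held 1 match to TTCNNNGAA, 2 to CTTTGA and 1 to TATATA. Of 32851 RefSeq mouse promoters of this length, 8.30%, 16.0% and 5.67% had at least 1 match to these, in the same order. It held none to the core of the interferon-stimulated response element (3.44%). These are letter matches only.

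By their gene identifiers, Prss56 (ENSMUSG00000036480) spans chr1:87183313-87188405 and Adamts19 (ENSMUSG00000053441) chr18:58836667-59054060, both on the plus strand, in the GENCODE M21 annotation of GRCm38. The genome build used for counting is not given in the sources used here. Prss56 is 5093 bases long with 13 exons and Adamts19 217394 bases with 23 exons in its longest listed transcript, and no other annotated gene overlaps either. Since levels were counted per gene and not per length, the 2 genes are not compared by level.

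Prss56 was near the limit of detection in saline Muller nuclei and common in the IL-27 libraries. The share of Muller nuclei with a Prss56 UMI was 2.76%, 2.33% and 1.01% in saline replicates 1, 2 and 6. In IL-27 replicates 4, 5 and 10 it was 14.3%, 17.7% and 45.5%. The groups did not overlap, and IL-27 replicate 10 stood far above the other two IL-27 libraries. Its exact 95% interval, 41.1 to 49.8%, did not reach the upper bound of 20.8% in replicate 5; such intervals cover counting error only. The means were 2.03% ± 0.91 and 25.8% ± 17.1 (SD, n = 3 each). Without IL-27 replicate 10, the difference of the mean shares was 14.0 percentage points in place of 23.8.

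Adamts19 was already present in saline Muller nuclei. It had a UMI in 14.8%, 17.5% and 8.47% of them in saline replicates 1, 2 and 6, and in 31.8%, 31.3% and 42.6% in IL-27 replicates 4, 5 and 10. The groups again did not overlap, and saline replicate 6 was lowest and IL-27 replicate 10 highest for both genes. The means were 13.6% ± 4.63 and 35.3% ± 6.37 (SD, n = 3 each). Among the other 13532 genes of this comparison, 4.46% lay higher in all 3 IL-27 libraries than in all 3 saline libraries. Nothing is read from that for the 2 genes, which were chosen on it.

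**Figure D1:**
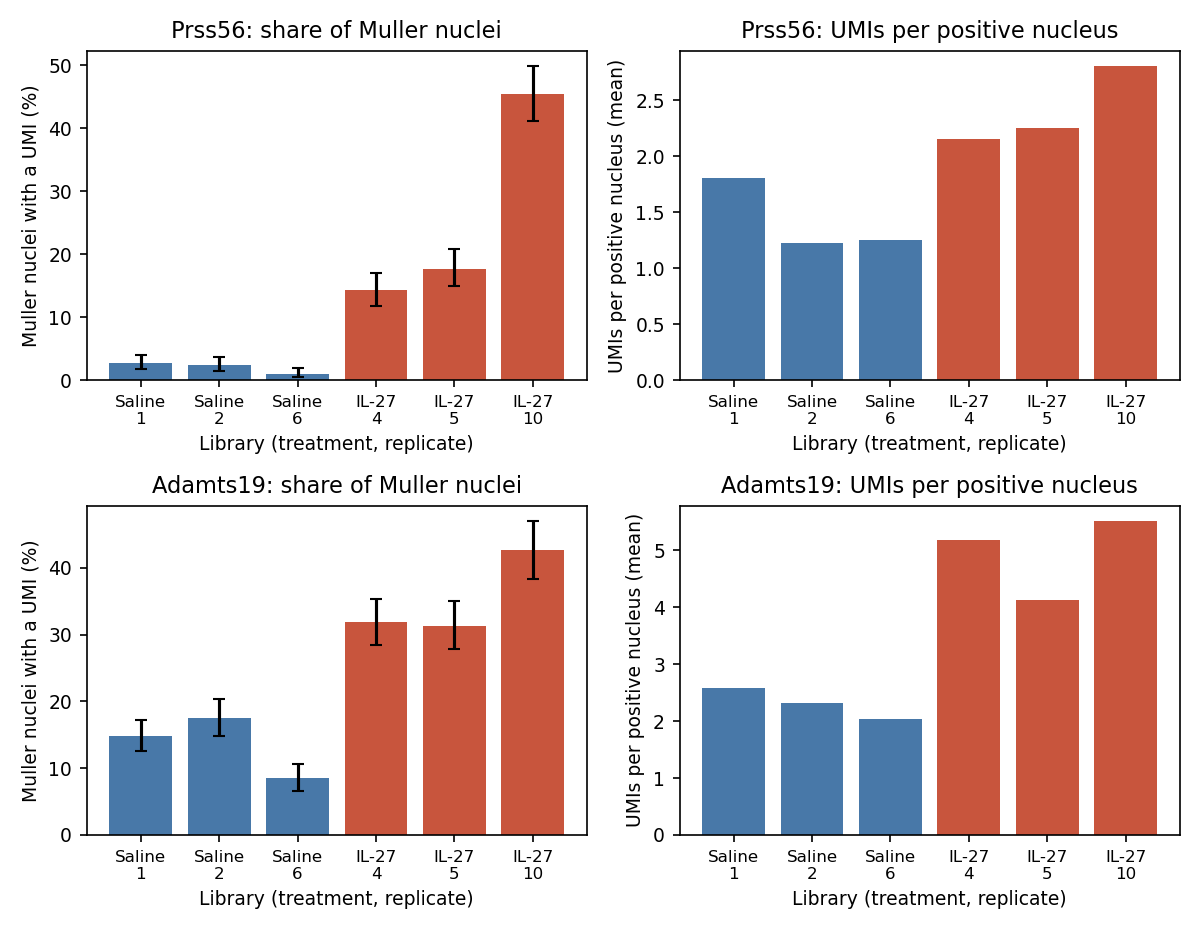
Left, the share of Muller nuclei (Abca8a at least 2 UMIs) with a UMI of Prss56 or Adamts19 in each library, in percent, with exact 95% intervals for counting error; right, the mean UMIs in nuclei that had one. Saline libraries are blue and IL-27 libraries red; Prss56 reached 45.5% in IL-27 replicate 10 and at most 2.76% with saline.

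The mean amount per positive nucleus was larger in the IL-27 libraries too. Positive nuclei held 1.80, 1.22 and 1.25 Prss56 UMIs on average in saline replicates 1, 2 and 6, and 2.15, 2.25 and 2.80 in IL-27 replicates 4, 5 and 10. For Adamts19 they held 2.58, 2.32 and 2.04 with saline and 5.18, 4.13 and 5.51 with IL-27. By this mean every IL-27 library was above every saline library for both genes. The choice read this measure too and no share over other genes is given for it, so nothing is read from the separation. For Prss56 the median was 1 UMI in all libraries but IL-27 replicate 10, where it was 2. Among nuclei with at least 2 Prss56 UMIs, which were 7, 1 and 2 with saline, the means overlapped: 3.86, 5.0 and 2.0 with saline against 3.37, 3.85 and 4.32 with IL-27. Nuclei with 5 or more Adamts19 UMIs made up 1.76%, 1.81% and 0.506% of Muller nuclei with saline, and 12.1%, 9.96% and 16.1% with IL-27. For Prss56 they were 2, 1 and 0 nuclei with saline against 8, 15 and 42 with IL-27. The highest single nucleus held 42 Adamts19 UMIs and the highest for Prss56 27.

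**Figure D2:**
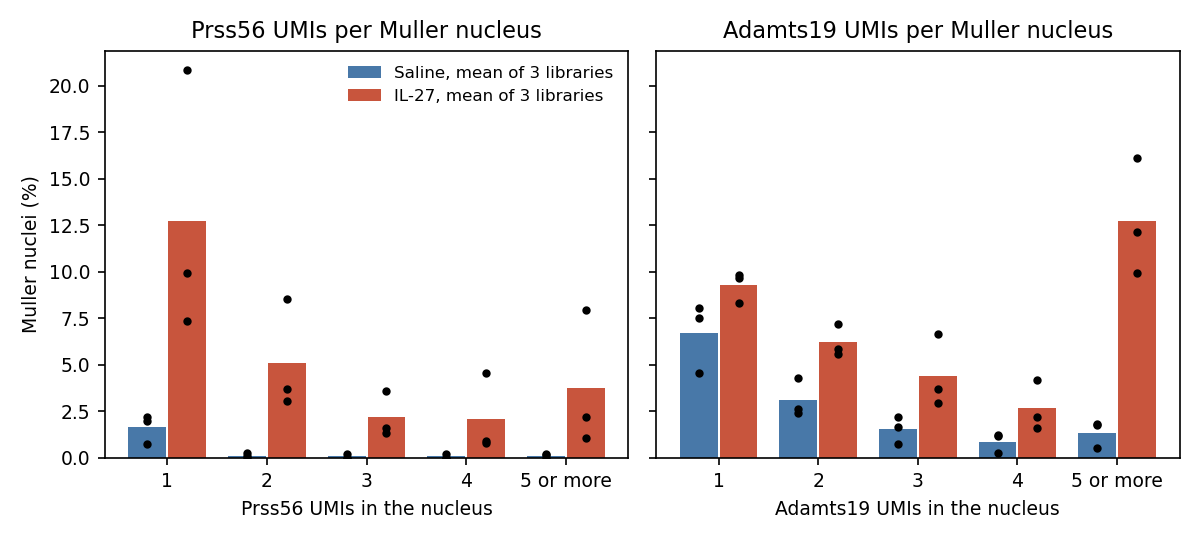
Share of Muller nuclei, in percent, by the number of Prss56 (left) or Adamts19 (right) UMIs they held; bars are means of 3 libraries and points single libraries. Nuclei with 5 or more Adamts19 UMIs averaged 12.7% in the IL-27 libraries and 1.36% in the saline libraries.

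Each nucleus was also thinned at random to 2000 UMIs, which left out 84 saline and 60 IL-27 nuclei. Shares with saline and IL-27 were then 0.884% ± 0.609 and 17.1% ± 11.9 for Prss56 (SD, n = 3 each). For Adamts19 they were 7.91% ± 3.31 and 27.8% ± 5.95 (SD, n = 3 each). The groups did not overlap, but no share over other genes is given for this measure, so nothing is read from that.

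For a fit over all genes, UMIs were summed per library over the 846, 713 and 716 saline and the 694, 662 and 493 IL-27 Muller nuclei of ordinary depth (within 2 median absolute deviations). There Prss56 was at 8.57, 5.88 and 3.02 CPM in saline replicates 1, 2 and 6, and at 71.3, 84.4 and 255 CPM in IL-27 replicates 4, 5 and 10. Adamts19 was at 72.0, 84.2 and 38.7 CPM with saline and at 376, 276 and 492 CPM with IL-27. Fitted with edgeR over all genes, the log2 fold changes were 4.48 (SE 0.52) and 2.55 (SE 0.26), which rank 1 and 3 of 13534 genes, as the choice of these genes implies. Without IL-27 replicate 10 they were 3.73 and 2.36.

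Few other genes of Muller glia were called in the same fit. With edgeR, 3 of the other 13532 genes rose with IL-27 and 3 fell at an adjusted p under 0.05, 0.0443% of those tested; DESeq2 called 12 and 9. Ror2, a receptor for Wnt5a, was at 66.0, 68.9 and 58.3 CPM with saline and 125, 142 and 208 CPM with IL-27 (log2 fold change 1.30, SE 0.16, edgeR adjusted p 0.0370). Foxp2, a forkhead transcription factor, was at 344, 364 and 290 CPM with saline and 613, 563 and 553 CPM with IL-27 (0.80, SE 0.11, edgeR adjusted p 0.0419). Atp2b4, a plasma membrane calcium pump, rose by 0.90 (SE 0.13, edgeR adjusted p 0.0425). Csmd3, Mecom and Reln fell, by 1.74, 2.63 and 1.45 on the log2 scale. Csmd3 and Reln are among the genes used to pick out the cluster that was mostly of saline nuclei. With that cluster left out, 2 genes were called as rising and 0 as falling. The cause of this change was not tested. Between 0 and 10 genes were called when single libraries were left out.

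The relatives and partners of the 2 genes did not pass the test with treatment. None of 8 measured genes of eye growth, 16 of the Adamts family, 11 serine protease genes and 16 protease inhibitor genes was called by edgeR or by DESeq2. At an unadjusted p under 0.05, edgeR had 0 higher and 2 lower of the eye growth genes, 2 and 1 of the Adamts family, 0 and 1 of the proteases and 2 and 1 of the inhibitors. Over all genes these shares were 2.89% higher and 2.10% lower. Among them Adamts9 was at 14.0 and 5.77 CPM (log2 fold change −1.30, SE 0.31, edgeR adjusted p 0.431), and Bmp2, a growth factor, at 5.16 and 0.488 CPM (−3.36, SE 0.60, adjusted p 0.151) with saline and IL-27. Adamts1 was at 80.7 and 101 CPM (0.32, SE 0.14, adjusted p 0.960), and Mfrp did not pass the filter on low counts. Of 9 genes of IL-27 signalling and 40 of the interferon response, 0 were called by either tool and 0 had an unadjusted p under 0.05; Stat3 was at 205 and 209 CPM. Median log2 fold changes were 0.05, 0.08, 0.05, 0.15, 0.04 and 0.28 for these lists in the order given, and −0.0010 over all genes tested.

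The nearest tested genes on each side of Adamts19 and Prss56 were also read. Gm50227, annotated as a long intergenic non-coding RNA, begins at chr18:58778425 and ends 49899 bases before Adamts19 on the same strand. It had 4, 1 and 0 UMIs in Muller nuclei of saline replicates 1, 2 and 6, and 19, 11 and 19 in IL-27 replicates 4, 5 and 10. It missed the edgeR threshold (log2 fold change 3.84, SE 0.62, adjusted p 0.0868) and was called by DESeq2 (4.01, adjusted p 0.0162). In the IL-27 libraries 36 of the 41 Muller nuclei with Gm50227 also had Adamts19; they were 5.35% of 673 Adamts19-positive nuclei, against 0.393% of 1273 without Adamts19. Rods had 0 UMIs of it in any library. Minar2, 8188 bases beyond the end of Adamts19 and also on its strand, was at 105, 98.5 and 75.9 CPM with saline and 143, 125 and 210 CPM with IL-27 (0.77, SE 0.18, edgeR adjusted p 0.420; DESeq2 adjusted p 0.0309). Beside Prss56, Gm28375 was at 76.8 and 89.3 CPM (0.22, SE 0.13) and Eif4e2, a cap-binding translation factor, at 28.9 and 28.2 CPM (−0.03, SE 0.14), and neither was called.

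Muller nuclei with Prss56 often had Adamts19. At 2000 UMIs per nucleus, Adamts19 was found in 68.7%, 55.4% and 59.2% of Prss56-positive nuclei of IL-27 replicates 4, 5 and 10, and in 20.7%, 19.6% and 23.6% of Prss56-negative nuclei. The odds ratios were 8.40 (exact 95% interval 4.70 to 15.3), 5.11 (3.0 to 8.71) and 4.71 (3.09 to 7.19), and pooled over the 3 libraries 5.54. Positive and negative nuclei were compared over libraries with edgeR, as 1 sum of each per library with library as a block. Both sums come from the same library. The p-values of these fits thus rest on differences within 3 libraries and on counting error, not on the spread of levels between libraries. Adamts19 was higher in Prss56-positive nuclei (log2 fold change 2.17, SE 0.10), and Prss56 in Adamts19-positive nuclei (2.47, SE 0.14). With DESeq2 the log2 fold changes were 2.16 and 2.55. Over 11 alternatives each they ran from 1.64 to 2.47 and from 1.98 to 2.77. No p is given for the pair, because its values in these libraries were read when the genes were chosen. In the saline libraries Prss56-positive nuclei numbered 14, 4 and 4 at this depth, of which 5, 2 and 0 had Adamts19 (pooled odds ratio 5.93). The log2 fold change of Adamts19 was 1.87 there, with an edgeR adjusted p of 0.283.

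**Figure D3:**
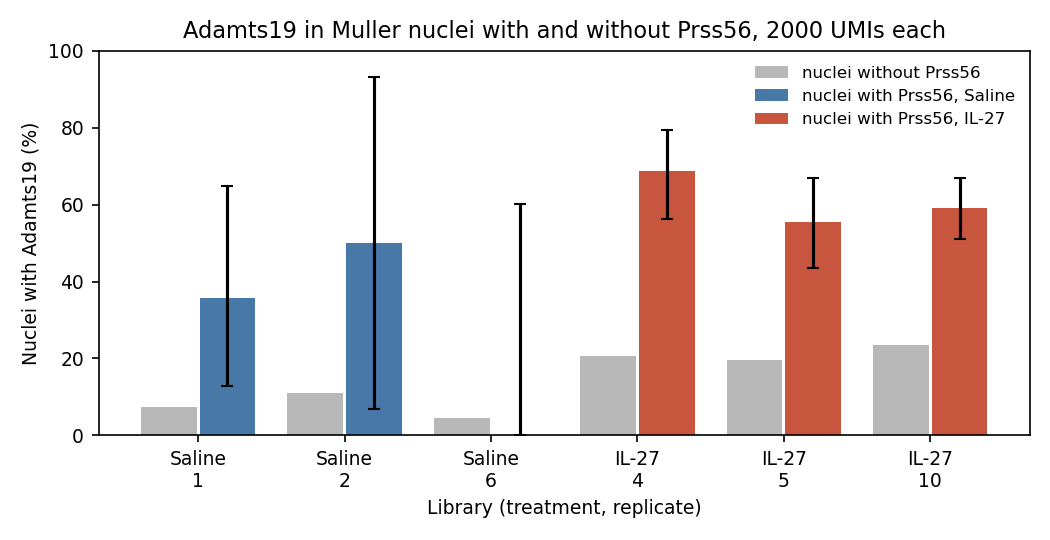
Share of Muller nuclei with an Adamts19 UMI, in percent, among nuclei without (grey) and with (coloured) a Prss56 UMI in each library, each nucleus thinned to 2000 UMIs; bars on the coloured columns are exact 95% intervals for counting error. In the IL-27 libraries the coloured columns lie between 55.4 and 68.7% and the grey ones between 19.6 and 23.6%.

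The 2 genes also went together in amount. Without thinning, Prss56 was at 17.4, 30.1 and 104 CPM in nuclei of IL-27 replicates 4, 5 and 10 that had no Adamts19 UMI. In nuclei with 5 or more Adamts19 UMIs it was at 295, 363 and 612 CPM. Each IL-27 library showed the same order, with nuclei of 1 and of 2 to 4 Adamts19 UMIs in between. IL-27 replicate 10 thus had more Prss56 than the other two also in nuclei without Adamts19. Over the 1886 nuclei of the IL-27 libraries at 2000 UMIs, the mean within-library Pearson correlation of the 2 genes (log of 1 plus UMIs) was 0.39. That was the highest for either gene among the genes found in at least 5% of these nuclei; nuclei of 1 library share its depth and chemistry, and no p is given.

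Prss56-positive Muller nuclei differed from negative ones in few genes. With edgeR, 32 of 8236 genes were higher (0.389%) and 37 lower (0.449%) at an adjusted p under 0.05, from 67, 74 and 157 positive nuclei; DESeq2 called 2 and 0, Adamts19 and Foxp2. These calls describe values that the choice had read. After Adamts19 the genes with the smallest p were Foxp2 (908 against 528 CPM, log2 fold change 0.75, SE 0.10), the adhesion receptor gene Adgrv1 (0.47, SE 0.07) and Apoe, a lipid carrier (0.44, SE 0.07). Ano1, a calcium-activated chloride channel, Flt1, a VEGF receptor, Ror2, the vesicle priming gene Unc13c, the polarity gene Pard3 and the early response gene Ier3 followed, with log2 fold changes from 0.33 to 1.63. Within libraries, correlations with Prss56 over nuclei were 0.15 for Apoe, 0.14 for Adgrv1 and 0.13 for Foxp2. Without IL-27 replicate 10, 7 genes were called in place of 69. The saline libraries, with 14, 4 and 4 positive nuclei, gave no usable repeat: 80.4% of 9222 genes had a log2 fold change below 0 there, and of the 32 higher genes 0 were called.

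Among the genes lower in Prss56-positive nuclei, Asic2, a proton-gated channel, Nrg3, a neuregulin, Lingo2 and Syt1, a calcium sensor of synaptic vesicles, had log2 fold changes from −1.68 to −0.89, and Prkca, a marker of rod bipolar cells, of −0.93. A setting chosen after the data were seen left out Muller nuclei that clustered with another named cell type. Of the 32 higher genes, 31 were tested there and 21 were still called. Of the 37 lower genes, 35 were tested there and 7 were still called. Sntg1, a syntrophin, and Trhde, a peptidase, were among those 7 (−0.93 and −1.34), and Asic2 was at −0.35 with an edgeR adjusted p of 0.906.

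Adamts19-positive Muller nuclei differed in more genes. With edgeR, 172 of 8079 genes were higher (2.13%) and 169 lower (2.09%), from 178, 158 and 176 positive nuclei of IL-27 replicates 4, 5 and 10; DESeq2 called 42 and 14. Without IL-27 replicate 4, 5 or 10, edgeR called 188, 93 and 222 genes in place of 341. These calls, too, describe values that the choice had read. Foxp2 was at 988 CPM ± 209 in positive and 430 CPM ± 11.5 in negative nuclei (SD, n = 3, log2 fold change 1.24, SE 0.08). Ror2 was at 257 CPM ± 36.2 and 110 CPM ± 35.1 (1.30, SE 0.14). Also higher were Zfp804b, a zinc finger gene (0.65, SE 0.06), Gm29683 (1.58, SE 0.17), Ano1 (0.88, SE 0.10) and Unc13c (0.56, SE 0.06). Adgrv1 (0.57, SE 0.07), Flt1 (0.50, SE 0.07) and the vesicle gene Sv2b (1.22, SE 0.16) were higher too. These leading higher genes were all also called by DESeq2, and all were called without nuclei of other named clusters. Over nuclei, the correlations within libraries were 0.30 for Foxp2, 0.23 for Unc13c and 0.21 for Ror2. Minar2, beside Adamts19, was higher in all 3 libraries (236, 215 and 259 against 114, 102 and 167 CPM, log2 fold change 0.95, SE 0.14) and was called by edgeR.

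The 10 leading lower genes differed in how they depended on nuclei of other clusters. Asic2, Syt1, Fam155a, Nrg3, Snhg11, Car10 and Lingo2 ranged from −1.98 to −1.21 and missed the threshold once nuclei of other named clusters were left out. Sntg1 (−1.33, SE 0.14), Ap1s2, a clathrin adaptor subunit (−1.16, SE 0.15), and Kcnip4, a potassium channel partner (−0.89, SE 0.12), were still called, at −1.32, −1.25 and −0.46. In that setting 143 of the 169 lower genes were tested and 63 were called. Of the 172 higher genes, 171 were tested and 134 were called.

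Lists of genes by function were also counted for Adamts19-positive nuclei. Of 9 measured genes of Wnt signalling 4 were higher: Ror2, Nkd1, a feedback inhibitor (0.88, SE 0.18), Lef1, a transcription factor (1.25, SE 0.27), and Znrf3, a ligase that removes Wnt receptors (0.47, SE 0.12); 0 were lower, and DESeq2 called Ror2 only. The median of the list was 0.43. Of 5 genes of retinoid handling, Rdh10 and Aldh1a1, which make retinaldehyde and retinoic acid, were higher (0.79, SE 0.11 and 0.91, SE 0.15, both called by DESeq2 too), and 0 were lower. Of 3 genes of the dorsal retina, Aldh1a1, which is on both lists, and the ephrin Efnb2 (1.13, SE 0.17) were higher. Tbx2, the third, was not called (0.35, SE 0.17, edgeR adjusted p 0.346), and neither of 2 ventral genes was called. Of 13 gliosis genes Cp was higher (0.23, SE 0.06), and Cd44, a hyaluronan receptor (−0.63, SE 0.13), and Gpnmb (−1.75, SE 0.31) were lower. DESeq2 called 0 of the gliosis genes. Prss56-positive nuclei also had higher Rdh10 (0.57), Aldh1a1 (0.71), Ror2 (0.85) and Nkd1 (0.90) and lower Cd44 (−0.72) and Gpnmb (−1.48), all called by edgeR. The gliosis gene Lcn2 was higher there (0.83, called by edgeR), and Efnb2 was at 0.09 (edgeR adjusted p 0.984). With Prss56, DESeq2 called 0 genes of the Wnt, retinoid, dorsal and gliosis lists. The median over all genes tested was −0.0050 for Adamts19 and −0.0037 for Prss56. Over all genes tested, 2.13% were called higher and 2.09% lower with Adamts19, and 0.389% and 0.449% with Prss56. The lists are short and overlap, and enrichment was not tested.

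**Figure D4:**
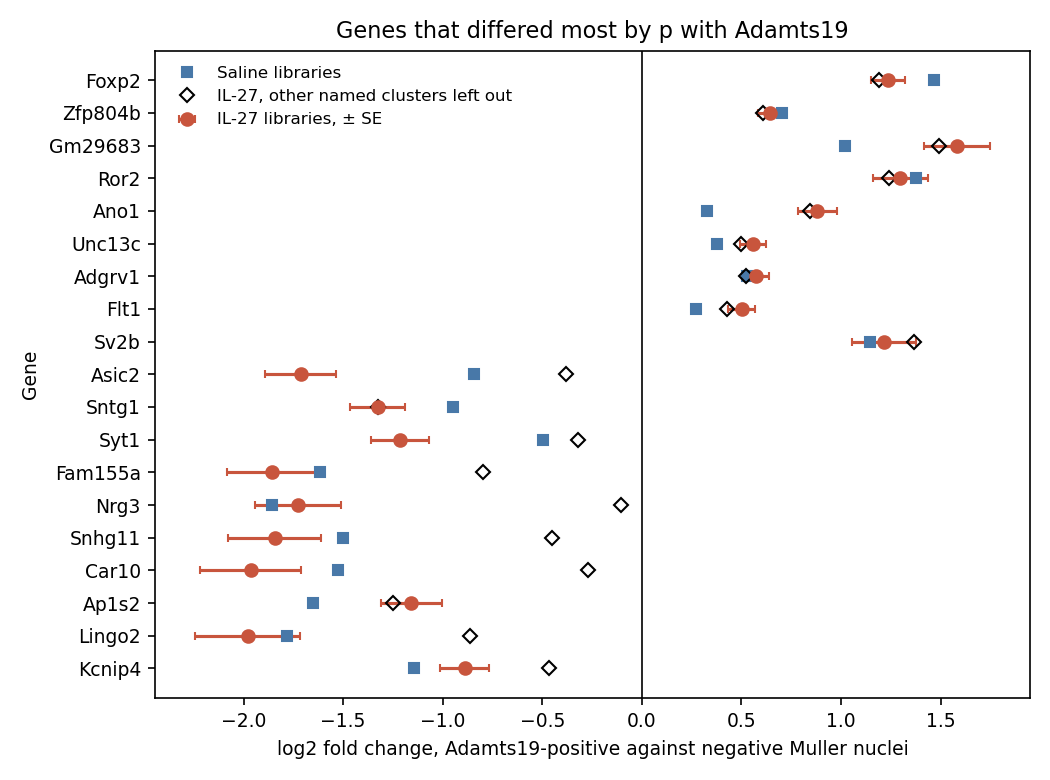
Log2 fold change of the named genes other than Prss56 in Adamts19-positive against negative Muller nuclei: IL-27 libraries with SE (red circles), the same without nuclei of other named clusters (open diamonds) and the saline libraries (blue squares). Foxp2 lay at 1.24 and 1.47 in IL-27 and saline libraries, while Nrg3 moved from −1.73 to −0.10 without nuclei of other clusters.

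The saline libraries, which share no sample with the IL-27 fit, gave a repeat for Adamts19, with 70, 83 and 35 positive nuclei. There 98 of 10092 genes were called (0.971%), 43 higher and 55 lower. Of the 172 genes higher in the IL-27 libraries, 169 were tested and 145 had the same direction (85.8%), 31 of them called. Of the 169 lower genes 153 had the same direction (90.5%), 33 of them called. Over all genes in the saline fit, 45.8% lay above 0 and 54.2% below. Foxp2 was higher by 1.47 (edgeR adjusted p 1.01e-29), Ror2 by 1.38 (9.83e-05), Efnb2 by 1.34 (1.02e-05), Fbn2, a fibrillin of elastic microfibrils, by 1.09 (2.86e-05), Rdh10 by 0.93 (2.01e-05) and Zfp804b by 0.71 (7.19e-12). Nkd1 was at 0.38 with an adjusted p of 0.895.

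Foxp2 itself differed with treatment, so the members were also read within nuclei with and without it at 2000 UMIs. Nuclei with Foxp2 were 32.4% ± 3.47 of Muller nuclei with saline and 50.3% ± 1.88 with IL-27 (SD, n = 3 each). Within them Adamts19 was found in 15.3%, 19.8% and 9.22% with saline and in 37.3%, 35.3% and 44.4% with IL-27. In nuclei without Foxp2 it was found in 4.12%, 6.63% and 2.75% with saline and in 13.1%, 12.4% and 23.9% with IL-27. The groups did not overlap in either kind of nucleus, but the genes were chosen on this comparison, so nothing is read from that. Prss56 was found in 4.0%, 0.775% and 0.461% of nuclei with Foxp2 with saline and in 11.9%, 15.3% and 33.5% with IL-27. Without Foxp2 it was in 0.344%, 0.414% and 0.549% and in 7.12%, 6.94% and 28.0%. In IL-27 replicate 10 the 2 kinds of nuclei were thus closer for Prss56 than for Adamts19.

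Muller nuclei had the highest level of both genes among the cell types. Other types were named from listed markers of their clusters, without nuclei that passed the Abca8a limit. Averaged over 6 libraries, Adamts19 was at 215 CPM in Muller nuclei, at 64.3 CPM in the ciliary-epithelium-like cluster and at no more than 2.94 CPM in the other types. Prss56 was at 70.9 CPM in Muller nuclei and at 12.3 CPM in rod-like nuclei, the next in order. The ciliary-epithelium-like cluster was at 10.5 CPM. Astrocyte-like, microglia-like, endothelial-like and cone-like nuclei followed at 7.70, 7.49, 6.89 and 6.73 CPM, and pericyte-like, bipolar-like, amacrine-like, horizontal-like and ganglion-like nuclei at 4.67, 3.6, 2.38, 2.11 and 1.77 CPM. For Adamts19, horizontal-like, ganglion-like and rod-like nuclei were at 2.94, 2.57 and 2.41 CPM, and endothelial-like and pericyte-like nuclei had no UMI. Adamts19 was higher in Muller nuclei than in each of 10 other types in 6 of 6 libraries, and Prss56 than in 9 of them, and than in astrocyte-like nuclei in 5 of 6. The Muller values served to choose the genes, so no p is given. Without IL-27 replicate 10 the difference of Prss56 between Muller and rod-like nuclei was 25.5 CPM in place of 58.6 CPM. Below Muller nuclei, the mean within-library difference between neighbours in either order was no larger than its SD over the 6 libraries, which hold both treatments. Some neighbours still kept their order. Adamts19 was higher in ciliary-epithelium-like than in horizontal-like nuclei in 6 of 6 libraries. Prss56 was higher in rod-like than in ciliary-epithelium-like, and in bipolar-like than in amacrine-like nuclei, in 5 of 6 each. The ciliary-epithelium-like cluster had 0 Prss56 UMIs in all saline libraries and in IL-27 replicate 4. Its limit for a count of 0 was at least 3.80 CPM with saline, above the rod-like levels of at most 2.57 CPM. The order of these types thus rests largely on counts of 0. Other neighbours kept their order in at most 4. Types further apart could differ evenly too, and Prss56 was higher in rod-like than in cone-like nuclei in 5 of 6 libraries. In the ciliary-epithelium-like cluster 2 libraries held fewer than 10 nuclei.

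**Figure D5:**
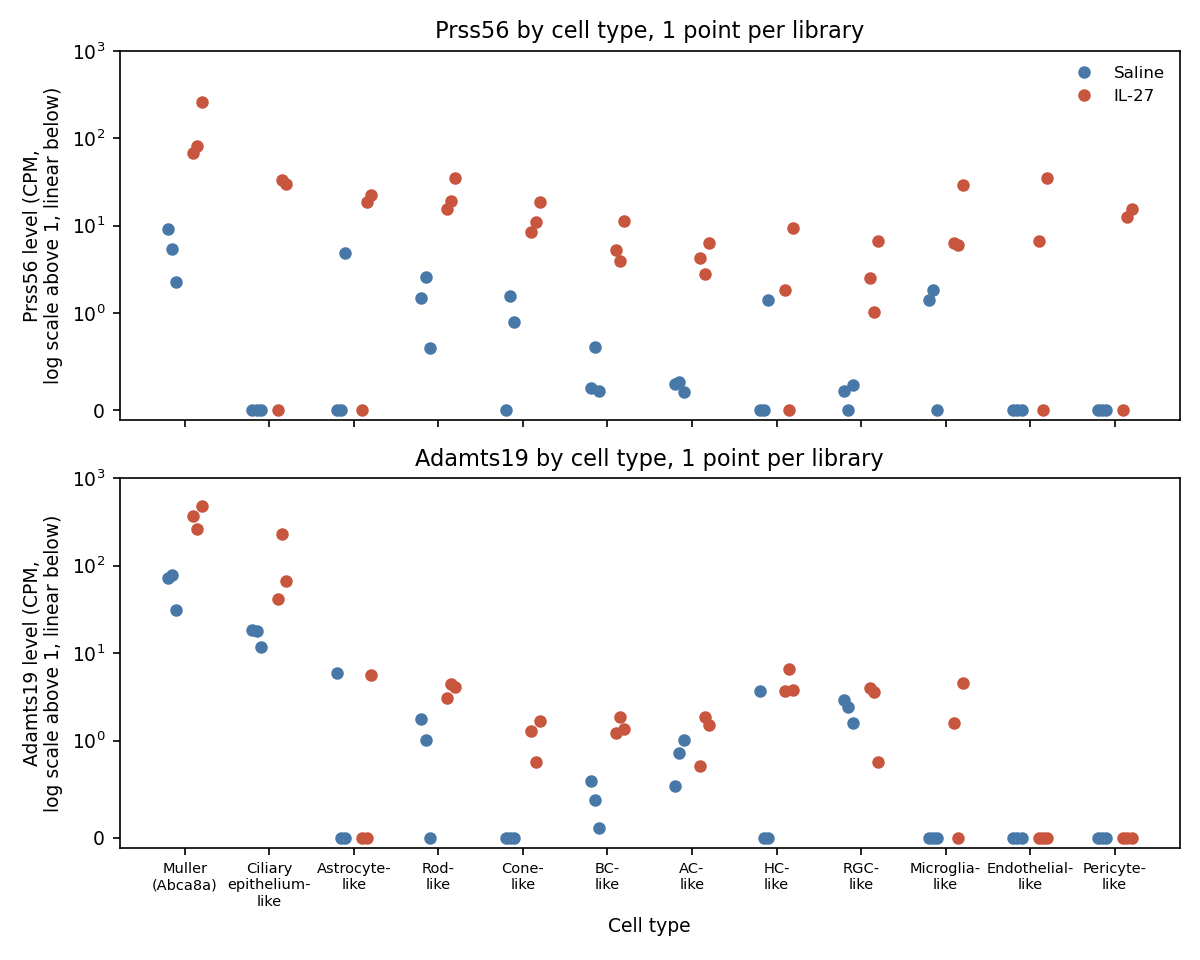
Level of Prss56 (top) and Adamts19 (bottom) in CPM in each cell type, 1 point per library, on an axis that is logarithmic above 1 and linear below; saline is blue and IL-27 red. In Muller nuclei Adamts19 lay between 31.2 and 478 CPM; outside Muller and ciliary-epithelium-like nuclei it stayed at or below 6.50 CPM.

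Outside Muller glia, Prss56 was seen at a low share in all types of the IL-27 libraries. It had a UMI in 3.32% of rod-like nuclei (median depth 1265 UMIs), 2.93% of cone-like (2452), 3.06% of bipolar-like (4312), 2.77% of amacrine-like (5875), 2.53% of microglia-like (2098) and 3.17% of endothelial-like nuclei (2351.5), against 23.9% of Muller nuclei (4544). The shares in neurons were close to those of endothelial-like and microglia-like nuclei, and no expression is read from them. Saline shares were 0.216% in rod-like and 0.165% in amacrine-like nuclei, and 0 of 114 endothelial-like nuclei allowed a share of up to 2.63%. At 1000 UMIs per nucleus the IL-27 shares were 2.02% in rod-like, 0.861% in bipolar-like, 0.520% in amacrine-like and 10.7% in Muller nuclei. They were 0.739% in microglia-like and 1.75% in endothelial-like nuclei, so at this depth rod-like nuclei were above microglia-like ones. The endothelial-like nuclei with a UMI were all in IL-27 replicate 10 (6.25% there, 0 in replicates 4 and 5). Adamts19 had a UMI in 0.494% of rod-like and 0.312% of cone-like nuclei of the IL-27 libraries and in 0 of 126 endothelial-like nuclei, which allows a share of up to 2.38%. The UMIs of the 2 genes were not in 1 ratio across types: 0.351 Prss56 UMIs per Adamts19 UMI in Muller nuclei (1170 and 3334 UMIs), 6.43 in rod-like (296 and 46) and 3.15 in amacrine-like nuclei (126 and 40). The part of RNA free in the suspension in these values was not tested. IL-27 replicate 10 had the highest Prss56 level in rod-like nuclei as well, at 34.7 CPM against 15.5 and 19.1 CPM in replicates 4 and 5.

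The ciliary-epithelium-like cluster held Adamts19 too. Its nuclei outside the Abca8a limit numbered 201, 191 and 94 with saline and 8, 7 and 95 with IL-27. Adamts19 was at 18.6, 17.7 and 11.8 CPM with saline and at 41.3, 230 and 66.1 CPM with IL-27, of which the first 2 IL-27 values rest on 1 and 7 UMIs. Prss56 had 0 UMIs in the 486 saline nuclei, which allows a share of up to 0.617%, and 11 UMIs in the 110 IL-27 nuclei. Of these, 10 were in IL-27 replicate 10, 1 in replicate 5 and 0 in replicate 4.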

How the data were processed

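The authors isolated nuclei from frozen retinas and made 6 single-nucleus libraries with a 10x kit. The deposited values are raw UMI counts per gene and barcode; the labels name Cell Ranger 9.0.1 and Seurat 5.2.1, whereas the headers of all 6 count files name Cell Ranger 8.0.1. The genome build is not given in the sources used here. Library totals ran from 36678332 to 48260748 counts.

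Barcodes with at least 500 UMIs, 200 genes and at most 5% mitochondrial UMIs were kept, and 4011 doublets were removed with Scrublet (scanpy 1.11.5, expected rate 8%). Clustering used 2000 variable genes, 25 principal components, 20 neighbours and a resolution of 0.25, which gave 35 clusters. Muller nuclei had at least 2 Abca8a UMIs. Counts were summed per library and tested with edgeR 4.0.16 (quasi-likelihood, minimum count 10, R 4.3.3) with Benjamini-Hochberg adjustment over all genes tested and a threshold of 0.05; DESeq2 1.42.0 was an alternative. For Adamts19- or Prss56-positive against negative nuclei, nuclei were thinned to 2000 UMIs and library was a block. SE is that of the log2 fold change. A permutation test between cell types was run and is not reported, because the Muller values had been used to choose the genes. Intervals are exact 95% Clopper-Pearson intervals, and the limit for a count of 0 is 3 counts of the total; both cover counting error only.

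The members and gene lists were chosen with earlier results of these data known. Genes named were up to 10 per direction with the smallest p among those called and changed the same way in all 3 libraries, any called relatives, and the nearest tested neighbours; other list genes were named after their values were seen. On simulated data with 200 genes changed by 1.5 on the log2 scale, edgeR recovered 179 with 21 false calls for IL-27 against saline, 130 with 0 for Prss56-positive nuclei and 176 with 6 for Adamts19-positive nuclei. Gene positions came from GENCODE M21 and the promoter from RefSeq GRCm38.p6. Adamts19 had no promoter entry. Some genes that the rule names are not reported here.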

Additional observations from a re-analysis of the deposited data

How the results depend on the processing

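No paired analysis was possible because the groups share no replicate number (1, 2 and 6 against 4, 5 and 10). The log2 fold changes of Prss56 and Adamts19 in Muller nuclei ran from 3.73 to 4.90 and from 2.29 to 2.78 over 14 alternatives each, and the Prss56 share difference from 12.7 to 29.6 percentage points over 15. The Adamts19 share difference fell from 21.7 to 13.6 percentage points where 1 Abca8a UMI sufficed. The pooled odds ratio of co-detection ran from 4.32 to 6.48. The 6 other genes called in Muller nuclei became 0 with nuclei of any depth or with doublets kept, 3 with Muller nuclei by clustering, 2 without the cluster rich in saline nuclei, 121 with no filter on low counts and 21 with DESeq2, and between 0 and 10 without single libraries. The 69 genes called for Prss56-positive nuclei became 136 without thinning, 7 at 1000 UMIs, 32 without nuclei of other named clusters (chosen after the data were seen), 2 with no library block and 2 with DESeq2, and between 7 and 51 without single libraries, lowest without IL-27 replicate 10. The 341 for Adamts19-positive nuclei became 94 at 1000 UMIs, 223 without nuclei of other named clusters, 31 with no library block and 56 with DESeq2, and between 93 and 222 without single libraries, lowest without IL-27 replicate 5. The cause of these changes was not tested. The Muller level exceeded that of rod-like nuclei by 58.6 CPM for Prss56 and that of horizontal-like nuclei by 212 CPM for Adamts19, the next types with at least 10 nuclei in each library; leaving out single libraries gave 25.5 to 70.0 and 159 to 248 CPM, the lowest without IL-27 replicate 10.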

Other observations

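Other gene lists gave few calls beside the members. Among 37 measured genes of the interferon response, Rsad2 and Trim30a, both induced by interferon, were lower in Adamts19-positive than in negative Muller nuclei of the IL-27 libraries (log2 fold changes −0.70 and −0.45 with edgeR), 0 were higher, 10 were lower at an unadjusted p under 0.05 and DESeq2 called 0; over all 8079 genes 2.09% were called lower and 6.34% were lower at that unadjusted p. Among 16 matrix genes Fbn2 and Col4a6 were higher and Lama2 was lower with edgeR in the same nuclei, and DESeq2 called Fbn2 only. Over all genes tested there, 2.13% were called higher and 2.09% lower with edgeR. Muller nuclei with a UMI of Gpnmb, a glycoprotein of lysosomes, were 7.72% ± 3.72 of Muller nuclei in the IL-27 libraries at 2000 UMIs, and Adamts19 was found in 10.9% ± 2.97 of them and in 29.1% ± 6.59 of the others (SD, n = 3).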
